A study of Mus musculus with 6 samples.

Results

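The Prader-Willi and Angelman cluster is a stretch of mouse chromosome 7 whose genes are mostly expressed from 1 parental chromosome. Its members here were the rows of a raw-count table with the symbols Ipw, Snrpn, Snurf, Ndn, Magel2, Mkrn3, Peg12, Ube3a and A230057D06Rik, 9 of 23420 rows. The set was chosen by the measured fold change of Ipw, which was lower in the mutant libraries, so the differences between genotypes of the members are described here and not tested. Of the 9 members, 8 had enough reads to enter the fit of 14618 genes, and Snurf had no read in any library.

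The study sequenced RNA from the cortex of mouse embryos at embryonic day 18.5. A group of 3 libraries was labelled Tshz3 mutant, Tshz3 being a teashirt-type gene for a transcription factor with zinc fingers, and a group of 3 was labelled wild type. Each library came from a pool of cortices of 3 to 4 embryos drawn from several litters. The sources used here do not give the mutated part of Tshz3, the zygosity, the strain or the sex of the embryos.

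Loss of the paternally expressed genes of this region causes Prader-Willi syndrome in people, and loss of maternal UBE3A causes Angelman syndrome. An imprinting centre at the start of Snurf and Snrpn is methylated on the maternal chromosome and keeps Snrpn, Snurf, Ipw, Ndn, Magel2, Mkrn3 and Peg12 silent there. In neurons a very long paternal transcript, Snhg14, runs from the Snrpn side through Ipw and arrays of small nucleolar RNA genes and reaches Ube3a in antisense, and paternal Ube3a is silenced. The counts sum both parental alleles, so they hold no measure of imprinting itself.

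On GRCm38, which is the same assembly as mm10, the members span positions 59228750 to 62464510 of chromosome 7. Ube3a lies on the plus strand at 59228750 to 59310837. Ipw is on the minus strand at 59619158 to 59678878, and its whole span lies inside that of Snhg14 (59272737 to 60450177), with 3 small nucleolar RNA genes inside Ipw's own span. Snrpn occupies 59982495 to 60450177 on the minus strand, and Snurf, at 59982495 to 60005199, lies wholly within it on the same strand. A230057D06Rik follows at 61705850 to 61927574, and 11 microRNA genes sit within that span. Ndn (62348277 to 62349928) and Magel2 (62376979 to 62381640) are on the plus strand, and Mkrn3 (62417593 to 62420153) and Peg12 (62461871 to 62464510) on the minus strand. Each interval is the whole RefSeq gene, exons and introns together. The nearest member starts 22.5 Mb beyond the end of Tshz3, which is on the same chromosome.

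Start-site windows of 300 bases, 250 before and 50 after the annotated start, are shown for the members on which the results turn, from RefSeq on build GRCm38.p6. Ipw is shown because its level differed most. The window shared by Snurf and the downstream start of Snrpn is shown because it lies at the imprinting centre, and the most distant Snrpn window because Snhg14 starts there too. Ndn is the member with the highest level and Ube3a the maternal one. Capitals mark CpG dinucleotides, the sites of imprint methylation, and each sequence reads 5′ to 3′ on the gene's own strand.
Ipw, chr7:59678829-59679128, minus strand: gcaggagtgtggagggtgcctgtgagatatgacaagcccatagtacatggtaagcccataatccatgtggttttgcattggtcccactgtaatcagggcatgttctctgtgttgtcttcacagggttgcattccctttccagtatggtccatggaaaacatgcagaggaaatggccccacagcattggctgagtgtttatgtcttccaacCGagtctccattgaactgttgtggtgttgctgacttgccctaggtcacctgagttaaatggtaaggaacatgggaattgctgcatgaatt
Snurf and Snrpn, chr7:60005150-60005449, minus strand: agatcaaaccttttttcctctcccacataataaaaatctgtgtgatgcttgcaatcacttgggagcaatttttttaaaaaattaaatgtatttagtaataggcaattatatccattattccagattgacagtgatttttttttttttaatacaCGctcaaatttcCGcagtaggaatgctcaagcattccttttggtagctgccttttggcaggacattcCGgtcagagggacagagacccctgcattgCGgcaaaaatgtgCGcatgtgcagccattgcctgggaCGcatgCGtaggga
Snrpn and Snhg14, chr7:60450128-60450427, minus strand: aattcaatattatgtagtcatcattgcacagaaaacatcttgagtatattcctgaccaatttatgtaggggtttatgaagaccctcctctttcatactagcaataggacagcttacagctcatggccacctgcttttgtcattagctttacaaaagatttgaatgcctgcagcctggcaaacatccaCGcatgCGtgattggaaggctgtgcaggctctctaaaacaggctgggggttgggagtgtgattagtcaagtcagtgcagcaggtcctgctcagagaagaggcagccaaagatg
Ndn, chr7:62348027-62348326, plus strand: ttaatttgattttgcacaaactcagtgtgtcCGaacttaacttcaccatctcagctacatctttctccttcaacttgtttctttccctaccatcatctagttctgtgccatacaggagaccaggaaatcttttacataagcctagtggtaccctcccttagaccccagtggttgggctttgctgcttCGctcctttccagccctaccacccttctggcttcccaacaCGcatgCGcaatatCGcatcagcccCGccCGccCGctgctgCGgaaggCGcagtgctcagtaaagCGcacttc
Ube3a, chr7:59228500-59228799, plus strand: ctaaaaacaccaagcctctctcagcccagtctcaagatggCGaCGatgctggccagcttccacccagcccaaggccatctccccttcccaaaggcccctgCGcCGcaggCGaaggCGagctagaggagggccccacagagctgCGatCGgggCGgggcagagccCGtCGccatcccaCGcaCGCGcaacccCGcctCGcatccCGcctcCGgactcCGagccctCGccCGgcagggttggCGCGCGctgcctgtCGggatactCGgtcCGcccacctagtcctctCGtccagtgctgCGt

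All 9 members had at least 1 such window. CpG content set them apart from each other. The Ube3a window held 29 CpG sites, Mkrn3 15, Peg12 12, Ndn 11, Magel2 10 and Snurf 7. The 3 upstream Snrpn windows held 2, 3 and 4, Ipw held 1 and A230057D06Rik 0. Of 32817 windows in the RefSeq table, 12.9% held at least as many CpG sites as Ube3a, and 14.1% held at most as many as Ipw. The 2 non-coding members were thus the poorest in CpG. The 3 upstream Snrpn windows were near copies of each other, with 83.0% to 84.7% of bases identical in a global alignment, while the same alignment of any of them with the Ipw, Ndn or Snurf window gave 58.0% to 60.3%.

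Several short motifs were searched on both strands. CGCATGCG, the inner letters of the motif of the transcription factor NRF1 (chosen after the sequences were seen), was found once in each of the 4 Snrpn windows and once in Ndn, against 1.86% of all windows. It was not in the windows of Ipw, Magel2, Mkrn3, Peg12, Ube3a or A230057D06Rik. The full NRF1 motif, which extends those letters by a base on each side, was in no member window and in 0.966% of all windows. TGCCGC, the letters bound by the imprint-keeping factor ZFP57 when methylated, was found once, in the Snurf window, against 11.6% of all windows. The site of Egr transcription factors, GCGTGGGCG, was in no member window (0.612% of all), TATAAA was in those of Magel2 and 1 Snrpn start (13.6% of all), and CCATNTT, for YY1, was in those of Ipw, Magel2, Mkrn3 and Ube3a (16.1% of all). These matches describe letters only.

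Libraries held 18569383 to 24147810 counted reads. Tshz3 itself was not lower in the libraries labelled mutant: it stood at 89.8, 93.1 and 99.2 CPM in mutant 1 to 3 and 78.7, 83.0 and 89.3 CPM in wild type 1 to 3. CPM is a gene's reads scaled to a common library size. Because Tshz3 reads could not verify the genotypes, "mutant-labelled" is used below. All 10 neocortex markers were present, among them Neurod6 at 634 ± 9.83 CPM in mutant-labelled libraries and at 598 ± 35.8 CPM in wild type (SD, n = 3). In edgeR's quasi-likelihood test 11 genes passed an adjusted p of 0.05, which is 0.0752% of those tested, or 506 (3.46%) when libraries were blocked by their number. Same-numbered libraries deviated together, so blocked values are given where they change a call.

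Ipw, a spliced non-coding RNA with no known protein, was the member that differed. Its level was 14.0, 9.72 and 7.60 CPM in mutant-labelled libraries 1, 2 and 3 and 29.4, 30.9 and 20.1 CPM in wild-type libraries 1, 2 and 3. Every mutant-labelled library lay below every wild-type library, and in both genotypes the third library was the lowest. The group means were 10.5 ± 3.28 and 26.8 ± 5.83 CPM (SD, n = 3), a level 2.56-fold higher in wild type. Within numbers 1, 2 and 3 the wild-type library was 2.09-, 3.16- and 2.63-fold higher. In bulk tissue, fewer cells expressing a gene and less RNA per cell cannot be told apart.

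The log2 fold change of Ipw, mutant-labelled minus wild type, was −1.36 (SE 0.25), and −1.37 (SE 0.11) with the library number as a block. Of the 14618 genes tested, 16 (0.109%), Ipw included, had a change at or below its own. The unblocked fit called 0 of the 8 tested members lower, beside 0.0274% of all genes. The blocked fit called 1 of 8, Ipw, beside 1.49% of all genes, and DESeq2 called the same 1, beside 0.641% of genes in either direction. Nothing is read from these counts, because this contrast chose the gene. Non-overlapping groups with the mutant-labelled side lower occurred in 6.09% of tested genes and, among the 8 tested members, in Ipw alone. With that side higher they occurred in 7.42% of tested genes and in 0 members (13.5% in either direction).

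**Figure D1:**
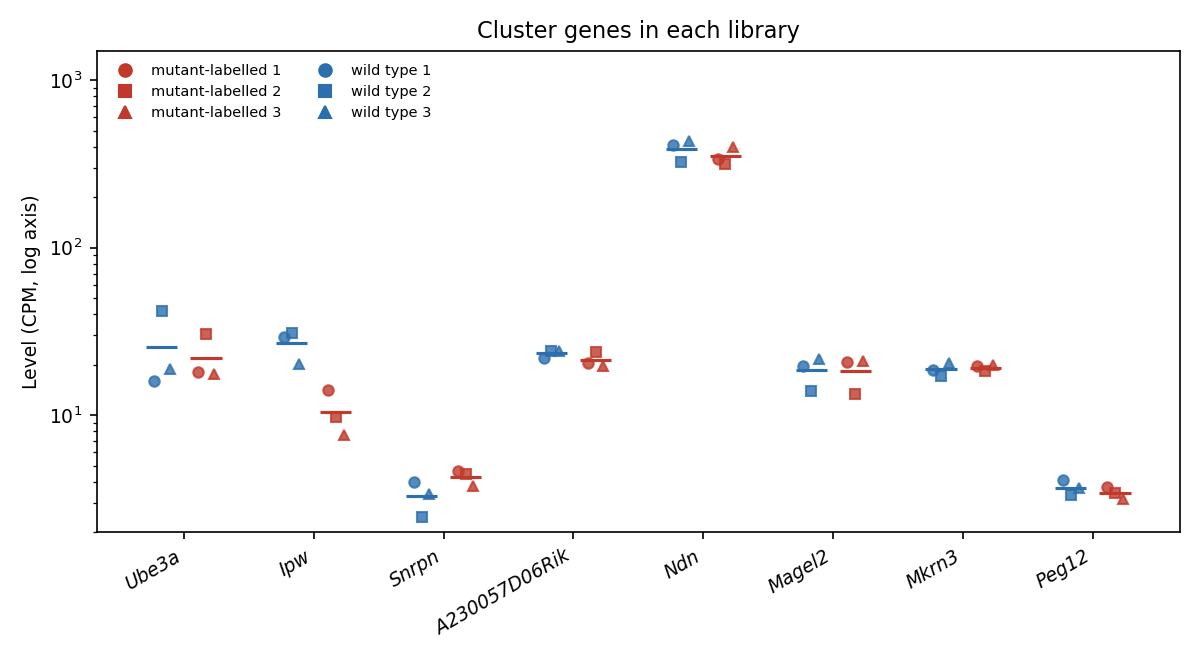
Level of each tested cluster gene in each library, in CPM on a log axis, with genes in their order on chromosome 7, a symbol for each library and a bar at the group mean; Snurf, at 0, is left out. The groups of Ipw are apart, 7.60 to 14.0 against 20.1 to 30.9 CPM, and those of every other gene overlap.

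Snrpn encodes SmN, a neuronal Sm protein of the splicing machinery, and Snurf encodes a small protein from the same bicistronic transcript. Snurf was listed at 0 in all 6 libraries. At these depths, and for counting error only, a count of 0 allows up to 0.125 to 0.163 CPM per library. Snrpn had only 51 to 107 reads per library. All of Snurf's annotated exon bases in GENCODE M21, and 27.3% of Snrpn's, were shared with another gene on the same strand. The sources used here do not give how reads in shared exons were counted, and its part in these low values was not tested. The Snrpn row cannot be read as the full level of the gene.

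Snrpn reached 4.62, 4.46 and 3.78 CPM in mutant-labelled libraries 1 to 3 and 3.98, 2.46 and 3.38 CPM in wild type. The groups overlapped, and wild type 2 was the lowest. The log2 fold change was 0.39 (SE 0.21), the opposite sign to Ipw, although both lie on the same strand within Snhg14. In numbers 1, 2 and 3 Snrpn differed by 0.21, 0.83 and 0.16 on the log2 scale. Number 2 gave most of the difference.

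The other rows within Snhg14 had smaller values than Ipw. D7Ertd715e and C230091D08Rik are older names of Snhg14 in RefSeq, and the table held a row for each. D7Ertd715e was at 18.8, 15.7 and 14.9 CPM in mutant-labelled libraries and at 20.6, 18.5 and 19.8 CPM in wild type, overlapping through mutant 1 and wild type 2. Its log2 fold change was −0.25 (SE 0.11; adjusted p of edgeR 0.709, blocked 0.142). C230091D08Rik was at 4.05 ± 0.34 and 3.80 ± 0.199 CPM (SD, n = 3), with a log2 fold change of 0.09. Ipw was thus at −1.36 while 2 rows named for the same long transcript were at −0.25 and 0.09. The differences between these rows were not tested, since Ipw was chosen for its change. The box C/D small nucleolar RNAs of the region, which Snhg14 hosts, and its microRNAs filled 13 rows, with 0 reads throughout in 9 of them and at most 2 reads in any library. Snord116 and both of its listed copies were among those at 0. Whether the library kit and the counting can record such short RNAs was not tested, so a 0 here does not show absence.

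Necdin, the product of Ndn, is a growth-suppressing protein of the MAGE family abundant in neurons after mitosis. It had by far the highest level of the members: 339, 315 and 400 CPM in mutant-labelled libraries against 409, 327 and 432 CPM in wild type. In both genotypes library 2 was the lowest and library 3 the highest, and the groups overlapped. The log2 fold change was −0.15 (SE 0.13), and the range of 2 SE on each side ran from −0.40 to 0.10. The mutant-labelled library was lower in each number, by 0.27, 0.05 and 0.11 on the log2 scale.

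Magel2, a MAGE protein that works with TRIM27 and USP7 in recycling of membrane proteins from endosomes, lay next to Ndn and at a far lower level. It stood at 20.8, 13.3 and 21.0 CPM in mutant-labelled libraries and at 19.7, 14.0 and 21.8 CPM in wild type. Library 2 was again the lowest in both groups. Its log2 fold change was −0.01 (SE 0.22), with a range of −0.46 to 0.43. The difference between libraries of a group was larger than that between genotypes.

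Mkrn3, a makorin zinc finger ubiquitin ligase known as a brake on puberty, was the steadiest member. It was at 19.6, 18.3 and 19.8 CPM in mutant-labelled libraries and at 18.6, 17.2 and 20.5 CPM in wild type. The log2 fold change was 0.03 (SE 0.09) and the range −0.15 to 0.22. Of all tested genes, 63.2% varied more within groups. Peg12, an intronless relative of the Wnt pathway proteins Frat1 and Frat2, was low, with 63 to 86 reads per library, 3.44 ± 0.276 CPM in mutant-labelled and 3.69 ± 0.374 CPM in wild-type libraries (SD, n = 3) and a log2 fold change of −0.10 (SE 0.17). The groups overlapped in Mkrn3 and in Peg12.

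A230057D06Rik, a long non-coding RNA on the centromere side of Ndn whose role is not established, was at 20.4, 23.7 and 19.5 CPM in mutant-labelled libraries. In wild type it was at 22.0, 24.1 and 24.2 CPM. The groups overlapped through mutant 2. The log2 fold change was −0.14 (SE 0.10), with a range of −0.33 to 0.05.

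Ube3a encodes a ubiquitin ligase and is the member expressed from the maternal chromosome in neurons. It was at 18.1, 30.6 and 17.6 CPM in mutant-labelled libraries and at 15.9, 42.0 and 18.9 CPM in wild type. Libraries numbered 2 were the highest in both genotypes, while the other 4 lay between 15.9 and 18.9 CPM. Its log2 fold change of −0.21 (SE 0.43) had the widest range of the members, −1.07 to 0.64. Without wild type 2 the value was 0.35, and without both libraries numbered 2 it was 0.03 (SE 0.12), so the sign rested on wild type 2.

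Against the mean of libraries 1 and 3, library 2 held 1.71-fold more Ube3a in the mutant-labelled group and 2.42-fold more in wild type. Only 129 tested genes (0.882%) were at least as high in library 2 of both groups. Magel2 stood near the other end, 0.65 and 0.56 lower in library 2 on the log2 scale, where 74 tested genes (0.506%) were at least as low in both. Ndn was lower there by 0.23 and 0.36. Of Ube3a's exon bases in GENCODE, 27.3% were shared with genes on the opposite strand. The libraries were stranded, and the sources used here do not say whether the counting used strand, so reads of the antisense transcript cannot be told apart from those of Ube3a.

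**Figure D2:**
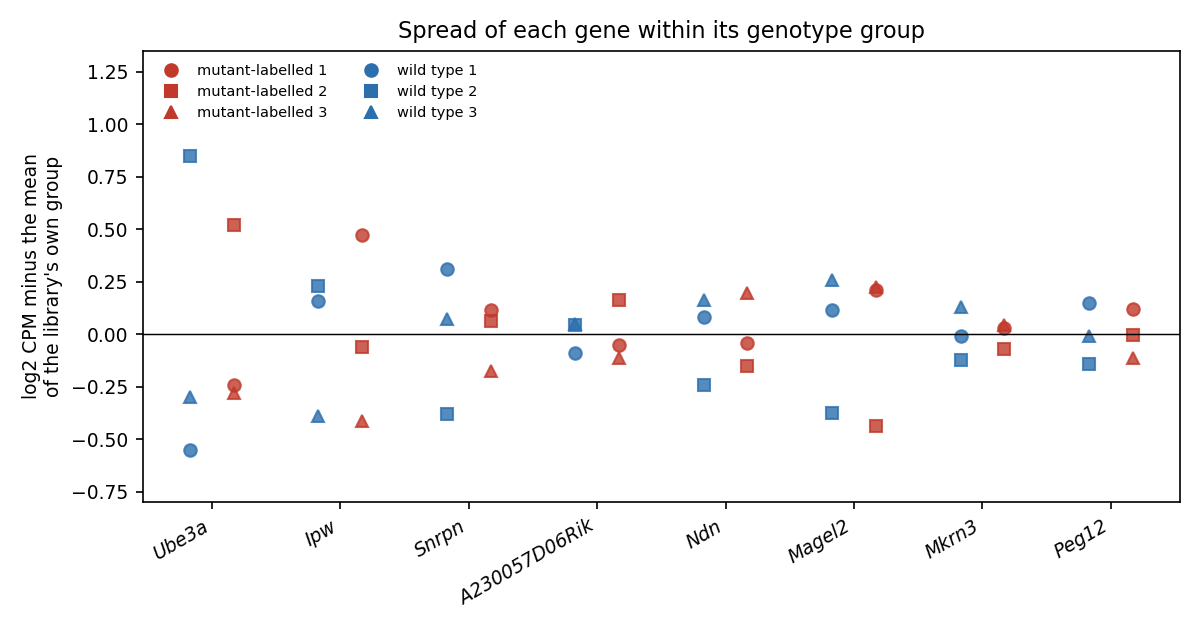
Each library's log2 CPM minus the mean of its own genotype group, for the 8 tested members, with a symbol for each library. Library 2 of both groups is the highest point for Ube3a and the lowest for Ndn, Magel2 and Mkrn3, and Ipw is lowest in library 3 of both groups.

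Among the members the within-group SD of log2 levels ran from 0.10 for Mkrn3, through 0.12 for A230057D06Rik, 0.13 for Peg12, 0.20 for Ndn, 0.26 for Snrpn, 0.35 for Magel2 and 0.39 for Ipw, to 0.61 for Ube3a. The median over all tested genes was 0.13. Ube3a and Ipw were thus among the more variable genes of the table, with 3.80% and 10.2% of tested genes more variable. The log2 fold change of Ipw, −1.36, was larger than its within-group SD. Nothing is read from this, because Ipw was chosen for its fall in these libraries. The log2 fold changes of Snrpn (0.39 against an SD of 0.26) and A230057D06Rik (−0.14 against 0.12) exceeded their SDs in size. Those of Ndn, Magel2, Mkrn3, Peg12 and Ube3a were smaller than theirs.

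Levels between genes are comparable only per length, and the following are RPKM, CPM per kilobase of GENCODE M21 exons, an annotation that may differ from the authors'. Ndn led at 105 ± 15.0 RPKM in wild type (SD, n = 3). Its value uses 3694 bases of merged exons, while its RefSeq gene spans 1652 bases, and the shorter length would raise it. Mkrn3 followed at 7.37 ± 0.644 and Magel2 at 3.99 ± 0.869 RPKM. A230057D06Rik (2.06 ± 0.111), Peg12 (1.40 ± 0.142) and Ube3a (1.24 ± 0.693) came next. Peg12 and Ube3a did not differ beyond their spread, and the Ube3a value uses 20626 bases of merged exons, so it is lower than it would be for a shorter transcript. Mutant-labelled libraries gave the same order, from Ndn at 95.1 ± 11.9 to Ube3a at 1.07 ± 0.357 RPKM. Snrpn and Snurf were left out of this order for exons shared on the same strand. Ube3a was kept, though 27.3% of its exon bases are shared on the opposite strand. Its place may thus depend on the strand setting of the counting, which is not given. Ipw has no GENCODE entry by that name and thus no length here.

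**Figure D3:**
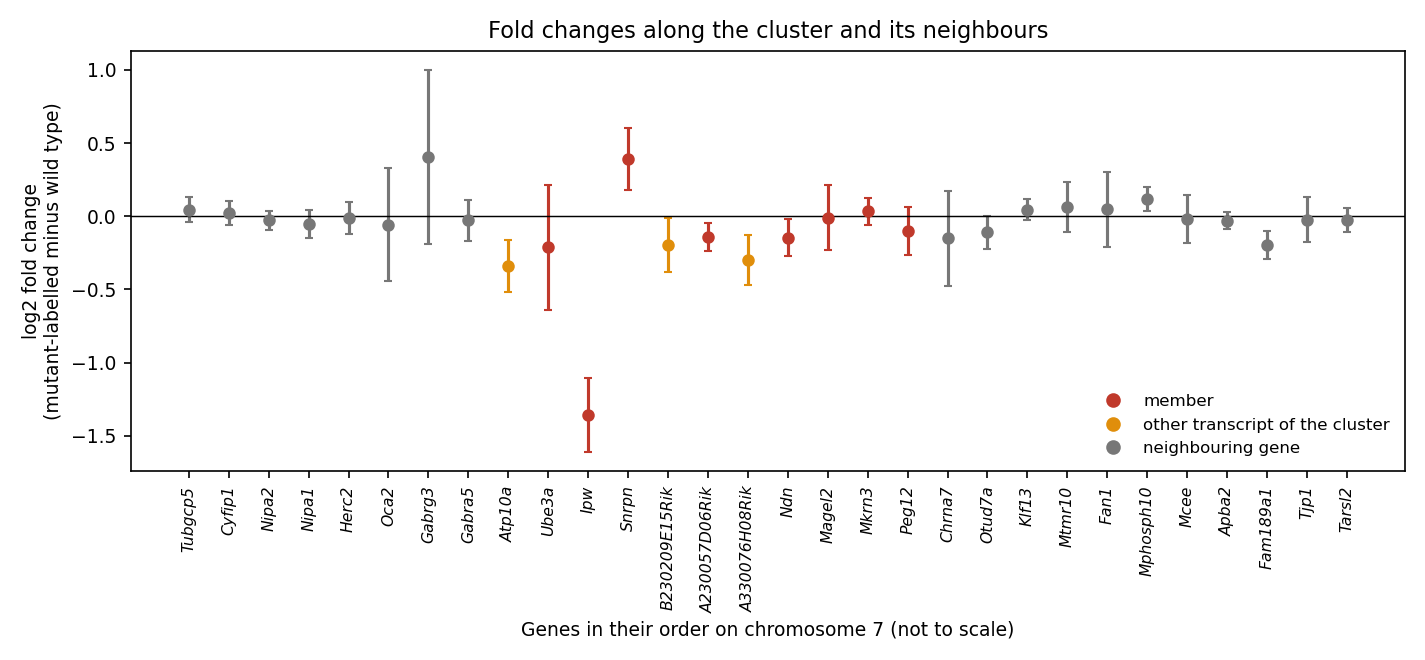
Log2 fold change, mutant-labelled minus wild type, with its SE (bars), in the order of the genes on chromosome 7 and not to scale. Drawn are the tested members, the other cluster transcripts Atp10a, A330076H08Rik and B230209E15Rik, and most neighbouring genes. The Snhg14 rows D7Ertd715e and C230091D08Rik are not drawn. Ipw at −1.36 stands below every gene drawn. The members on its sides are Ube3a at −0.21 (SE 0.43) and Snrpn at 0.39 (SE 0.21), and their difference from Ipw was not tested.

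Other transcripts of the cluster that are no members were 5 tested rows, of which 0 passed in either fit, with 4 of 5 values below 0 and a median log2 fold change of −0.25, beside −0.01 over all tested genes. Atp10a, a phospholipid transporter gene whose imprinting varies, was at 4.65 ± 0.491 CPM in mutant-labelled and 5.90 ± 1.02 CPM in wild-type libraries (SD, n = 3), with a log2 fold change of −0.34 (SE 0.18). The non-coding RNA A330076H08Rik was at 3.82, 3.75 and 3.17 against 4.31, 4.98 and 3.92 CPM. It was the only 1 of the 5 whose groups did not overlap, beside 6.09% of all tested genes in that direction. Its log2 fold change was −0.30 (SE 0.17, adjusted p of edgeR 0.810, blocked 0.328). B230209E15Rik, also non-coding, had a value of −0.20 (SE 0.18) with overlapping groups. Only Ipw among all tested transcripts of the cluster had a change of over 0.5 on the log2 scale.

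Genes on each side of the imprinted domain, expressed from both alleles, did not pass the test. The list held 22 tested genes, of which RefSeq puts Arhgap11a on chromosome 2. None passed with or without the block, and the median log2 fold change was −0.03. Herc2, a giant ubiquitin ligase whose product binds UBE3A, was at 210 ± 23.1 CPM in mutant-labelled and 211 ± 26.7 CPM in wild-type libraries (SD, n = 3), and Apba2 and Cyfip1 had log2 fold changes of −0.03 and 0.02. The lowest value among these neighbours was −0.20, in Fam189a1, which is named for that value.

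Close relatives of the members elsewhere in the genome were tested next. Of 11 paralogs 0 passed in either fit, and the median log2 fold change was −0.03. The MAGE gene Maged1 was at 943 ± 31.1 CPM in mutant-labelled and 942 ± 57.0 CPM in wild-type libraries (SD, n = 3), above Ndn in both groups on this per-gene scale, which is not corrected for length. Maged2 and Magee1 had log2 fold changes of −0.06 and 0.05, and the makorin gene Mkrn1 one of −0.06. Frat1 and Frat2, relatives of Peg12 named after their values were seen, were at −0.35 (SE 0.16) and −0.30 (SE 0.13) without passing (edgeR adjusted p = 0.727 and 0.682). Of 12 genes for core and related proteins of the splicing particles that hold SmN, 0 passed, and Snrpb, the closest relative of Snrpn, was at 128 ± 3.59 and 130 ± 3.47 CPM.

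Of 26 tested genes for proteins that work with those of the cluster, 2 were lower when blocked, beside 1.49% of all tested genes. Without the block 0 were lower, beside 0.0274% of all. None was higher in either fit, and the median log2 fold change was −0.02. Ngfr, the p75 neurotrophin receptor, to which necdin binds, was at 5.66, 4.04 and 4.99 CPM in mutant-labelled libraries and at 9.86, 12.2 and 12.5 CPM in wild type. The groups were apart. Its log2 fold change was −1.24 (SE 0.17), with an edgeR adjusted p of 0.0773 unblocked and 0.000352 blocked. Usp7, the deubiquitinase that joins Magel2 and Trim27, was at 216 ± 7.08 and 241 ± 5.39 CPM (SD, n = 3), and its log2 fold change was −0.16 (SE 0.05; adjusted p of edgeR 0.517 unblocked and 0.0482 blocked). The blocked call of Usp7 was lost without number 1 (adjusted p 0.169) or number 3 (0.490), by edgeR. Vps35 of the retromer, which carries Magel2 to endosomes, had a value of −0.04, and Gsk3b, the kinase that Frat-like proteins bind, had one of −0.07.

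Of 20 tested factors that keep or read imprints, 0 passed in either fit and the median was 0.04 on the log2 scale. Zfp57, which protects methylated imprints, was at 425 ± 10.4 CPM in mutant-labelled and 426 ± 17.4 CPM in wild-type libraries (SD, n = 3). Its partner Trim28 lay between 480.5 and 501 CPM in mutant-labelled and between 515 and 525 CPM in wild-type libraries, groups that did not overlap, with a value of −0.08 (SE 0.05; adjusted p of edgeR 0.826). Ehmt2 and Zfp445 had values of −0.02 and −0.05. Over these non-member lists, the unadjusted p of edgeR was under 0.05 in 0 of the 5 other cluster transcripts, 0 of 22 neighbours, 1 of 11 paralogs (Frat2), 0 of 12 splicing proteins, 4 of 26 partners and 0 of 20 imprint factors, beside 1037 (7.09%) of all 14618 tested genes. DESeq2 called 1 of all these genes, Ngfr.

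The genes with the pattern nearest to Ipw over the 6 libraries were ranked by the root mean square difference of log2 levels, each centred on its own mean, among 12789 genes. The nearest were the fibrillar collagen gene Col5a1 (0.31), Ngfr (0.35), the activity-induced transcription factor gene Egr1 (0.37), Gm20594 (0.38) and the collagen cross-linking enzyme gene Loxl2 (0.40). Col5a1 was at 16.7, 12.1 and 8.76 CPM in mutant-labelled libraries and at 24.1, 26.7 and 14.3 CPM in wild type, in the same order within each group as Ipw. The groups of Col5a1 overlapped. Loxl2 was at 11.4, 8.42 and 7.66 against 12.9, 17.8 and 13.4 CPM, with the groups apart. Egr1 (log2 fold change −1.84) and Gm20594 (−1.26) were among the 4 genes called lower without the block. The other members ranked from 1470 (Peg12) to 12449 (Snrpn). This ranking is a description of 6 libraries.

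Col1a1 and Col1a2, collagen genes of fibroblasts and meninges singled out after their values were seen, varied more between libraries than Ipw did. Col1a2 was at 82.2, 26.2 and 15.4 CPM in mutant-labelled libraries 1 to 3 and at 107, 70.2 and 12.4 CPM in wild type, and Col1a1 at 44.4, 20.4 and 16.97 against 59.6, 29.7 and 12.8 CPM. Both were lower on the mutant-labelled side in numbers 1 and 2 and higher in number 3. Col5a1 and Loxl2 were lower on that side in all 3 numbers, as Ipw was. The 15 glia, vessel, microglia and blood rows, these 2 included, summed to 373 to 514 CPM in mutant-labelled and 362 to 563 CPM in wild-type libraries. The globin rows Hba-a1 and Hbb-b1 were at 0 throughout. Whether the counting can record reads of these globin genes was not tested, so their zeros do not measure blood. Of the 13 tested, 0 passed in either fit of edgeR or in DESeq2, and 0 had an unadjusted p under 0.05. The part of such cells in the Ipw values was not tested.

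**Figure D4:**
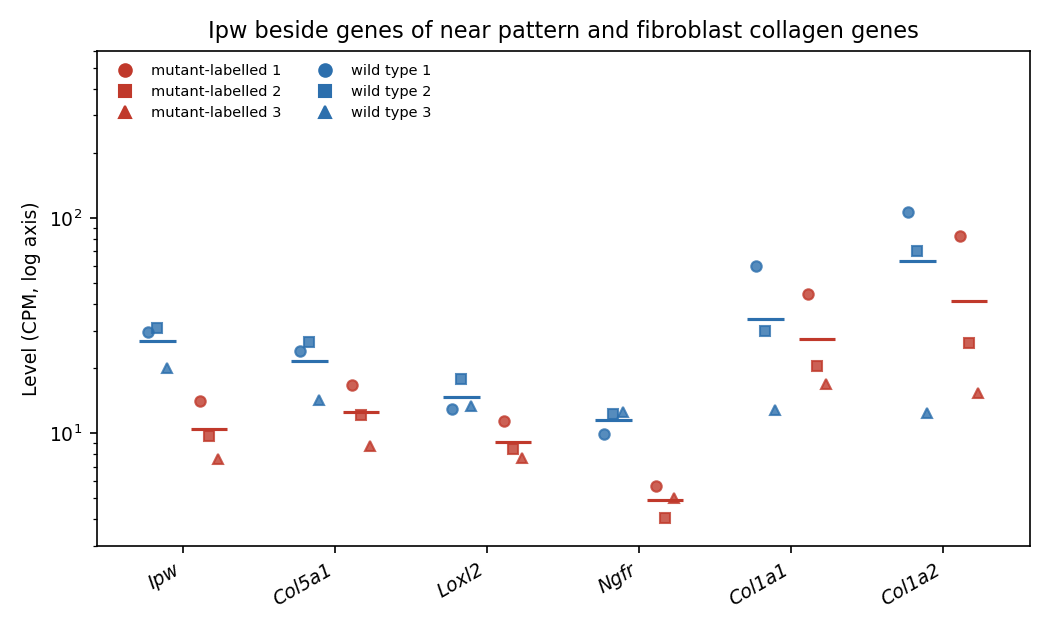
Levels in CPM on a log axis, with a symbol for each library and a bar at the group mean, of Ipw, of Col5a1, Loxl2 and Ngfr, which are among the 5 genes nearest to it in pattern, and of the fibroblast collagen genes Col1a1 and Col1a2. In library 3 Col1a1 and Col1a2 are higher on the mutant-labelled side (15.4 against 12.4 CPM for Col1a2), and Ipw (7.60 against 20.1 CPM), Col5a1, Loxl2 and Ngfr are lower.

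Ndn, Magel2 and Snrpn are well known for expression in the hypothalamus, so markers of regions near the cortex were read beside them. The 15 hypothalamic markers summed to 5.92 to 11.5 CPM in mutant-labelled and 7.68 to 11.1 CPM in wild-type libraries. Rax and Nkx2-4 were at 0, and Nkx2-1, also a marker of subpallial progenitors and interneurons, was the highest of them (3.46 to 5.75 CPM). Fezf1, which did not enter the fit, was highest in library 3 of both genotypes. It was at 0.05, 0.04 and 2.32 CPM in mutant-labelled libraries 1 to 3 and at 0.14, 0.10 and 2.99 CPM in wild type. Subpallial markers summed to 393 to 456 against 403 to 489 CPM, and among them the opioid peptide gene Penk fell by 0.55 in the blocked fit (edgeR adjusted p = 0.0277, unblocked 0.633). That call was lost without number 1 (log2 −0.34, edgeR adjusted p 0.211) or number 3 (0.136). Among the neocortex markers, Bcl11b, a regulator of projection neuron identity, was called higher in the blocked fit (log2 0.15, edgeR adjusted p = 0.0478, unblocked 0.549), a call also lost without number 1 (0.146) or number 3 (0.452). The part of these shifts in the members' values was not tested.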

How the data were processed

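Gene expression was measured by RNA sequencing in 6 libraries, 3 per genotype. The authors deposited whole-number counts, 1 row for each gene symbol and not normalized, as the values show, and the labels' protocols name a stranded TruSeq kit. HTSeq 0.5.3p9, TopHat2 2.0.9, Bowtie2 2.1.0, CASAVA 1.8.2 and the build mm10 are named in the submitters' processing notes. The sources used here do not give the annotation or the strand and overlap settings, so overlapping genes could lose or share reads. No row lacked a gene name, and 0 columns of sample values were unused.

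Columns were matched to libraries by title. The test was that of edgeR 4.0.16 under R 4.3.3 (robust quasi-likelihood F test, TMM scaling, default expression filter, two-sided, Benjamini-Hochberg over 14618 genes, threshold 0.05), and the SE was derived from the F statistic. The fit was checked on simulated counts. CPM uses TMM-scaled library sizes. Log2 CPM used a prior count of 2. P-values measure the spread between pools. Same-genotype libraries differed beyond sampling noise (chi-square per degree of freedom 7.13 to 23.1).

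Same-numbered libraries deviated together from their group means, with correlations of 0.614, 0.514 and 0.467, so the number was taken to pair them; the labels do not say what it marks. Alternatives were this block, DESeq2 1.42.0, other scalings and filters, and leaving out libraries.

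The members and lists were chosen with earlier results of these data known. Named genes were all members, every list gene passing in either fit, up to 4 genes per list with the highest level, and the 5 genes nearest to Ipw in pattern; others are marked. Some genes that the rule names are not reported here. Symbols matched RefSeq (GRCm38.p6) for 9 of 9 members and GENCODE M21 exons for 8.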

Additional observations from a re-analysis of the deposited data

How the results depend on the processing

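Over 18 alternative settings the log2 fold change of Ipw stayed between −1.63 and −1.18. Leaving out single libraries gave −1.63 to −1.18, and leaving out both libraries of 1 number gave −1.56 to −1.19. No member moved by more than its within-group SD. The ranges were −0.26 to −0.07 for Ndn, −0.18 to 0.18 for Magel2, −0.02 to 0.10 for Mkrn3, 0.19 to 0.56 for Snrpn and −0.52 to 0.35 for Ube3a. Besides Ipw, Ndn was the only member to pass in any setting: with the block and without number 2 (−0.19, edgeR adjusted p 0.00235; 0.119 with the block and all libraries). Ube3a turned above 0 without wild type 2 or without both libraries numbered 2.

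The count over all genes, 7 higher and 4 lower, became 288 and 218 with the replicate block, 57 and 41 with DESeq2, 11 and 9 without the expression filter, and its lower side 8 with upper-quartile scaling. Without single libraries it ran from 1 to 21 higher and from 2 to 14 lower, the top of both from leaving out wild type 2. Without both libraries of a number it was 1 and 1 (number 1), 1 and 2 (number 2) and 0 and 0 (number 3). With the block it was then 141 and 154, 1119 and 755, and 35 and 27. Leaving out a number leaves 2 libraries per group.

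The non-member lists of the cluster, with 0 calls, had 2 lower with the block, 1 lower with DESeq2, upper-quartile scaling or no filter, and with the block 2 lower without number 1, 6 higher and 6 lower without number 2 and 1 lower without number 3. Depth limits Snrpn and Peg12, with at most 107 reads per library.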
